A study of Homo sapiens with 6 samples.

Results

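Stathmins and microtubule proteins of neurons were examined in human glioblastoma cells made to express RBFOX1. The 10 genes were STMN1, STMN2, STMN3, STMN4, GAP43, DCX, MAP2, MAPT, MAP1B and TUBB3, taken from the 58051 genes of the count files by their Ensembl identifiers. They were chosen with the RBFOX1 to GFP comparison of these same libraries already known, so their differences are given below as descriptions and carry no p-value. Of the 10 genes, 9 reached a total of 10 counts across the libraries and entered the comparison of 20536 genes, and DCX had no count in any library.

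A172 is an established glioblastoma cell line. Stable A172 lines were made with lentiviral plasmids expressing RBFOX1, an RNA-binding protein of neurons and muscle that recognises the sequence TGCATG (in DNA letters), or GFP as the control, with 3 biological replicates of each. No other allele or agent distinguished the groups, and both were grown in the same serum-containing medium. RBFOX1 was therefore supplied from outside, in 1 cell line, and what was measured is total RNA of whole cultures, in which fewer cells expressing a gene and less of its RNA per cell cannot be told apart. Ribosomal RNA was depleted before stranded sequencing, and 7433414 to 23249221 read pairs per library were counted on genes. In the library with fewest counts, RBFOX1 replicate 1, 3 counts were worth 5.44 normalized counts, against 1.82 in the library with most, GFP replicate 1. RBFOX1 itself had 4, 0 and 1 counts in GFP replicates 1, 2 and 3 and 10276, 16467 and 21451 in RBFOX1 replicates 1, 2 and 3, as the labels required.

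Microtubules are hollow polymers of alpha- and beta-tubulin that grow and shrink at their ends. Stathmins bind free tubulin and favour shrinkage, whereas the classical microtubule-associated proteins MAP2, tau (encoded by MAPT) and MAP1B, as well as doublecortin (DCX), bind the polymer and stabilise it. Neurons use these proteins to build axons and dendrites, and STMN2, DCX, MAP2 and TUBB3 are in common use as markers of neuronal differentiation, although STMN1 is also abundant in dividing cells.

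The neuronal stathmins STMN2 and STMN3, the growth-cone protein gene GAP43 and MAP2 had clearly more RNA in RBFOX1 cells. Their ratios were 2.65 to 43.6. STMN4 was counted in the RBFOX1 libraries only, at 1, 7 and 7 counts. STMN1 was 1.25-fold higher and MAP1B was lower, by 0.29 on the log2 scale. MAPT and TUBB3 did not pass the threshold, with log2 fold changes of 0.22 and 0.36, and DCX was not detected. By the quasi-likelihood test of edgeR (Benjamini-Hochberg adjusted), 7 of the 9 fitted genes passed an adjusted p of 0.05, 6 of them higher and MAP1B lower. Of all genes tested, 46.6% passed, 23.7% as higher and 22.9% as lower in RBFOX1 cells. A log2 fold change of at least 1 in size was met in addition by 5 of the 9, and by 12.7% of all genes. The groups did not overlap for 7 of the 9, each time with the 3 RBFOX1 libraries above the 3 GFP libraries, beside 53.4% of all genes in either direction. The median log2 fold change of the 9 genes was 1.41, and that of all tested genes was 0.0051. Because the genes were chosen on this same contrast, nothing is read from these shares or medians.

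**Figure D1:**
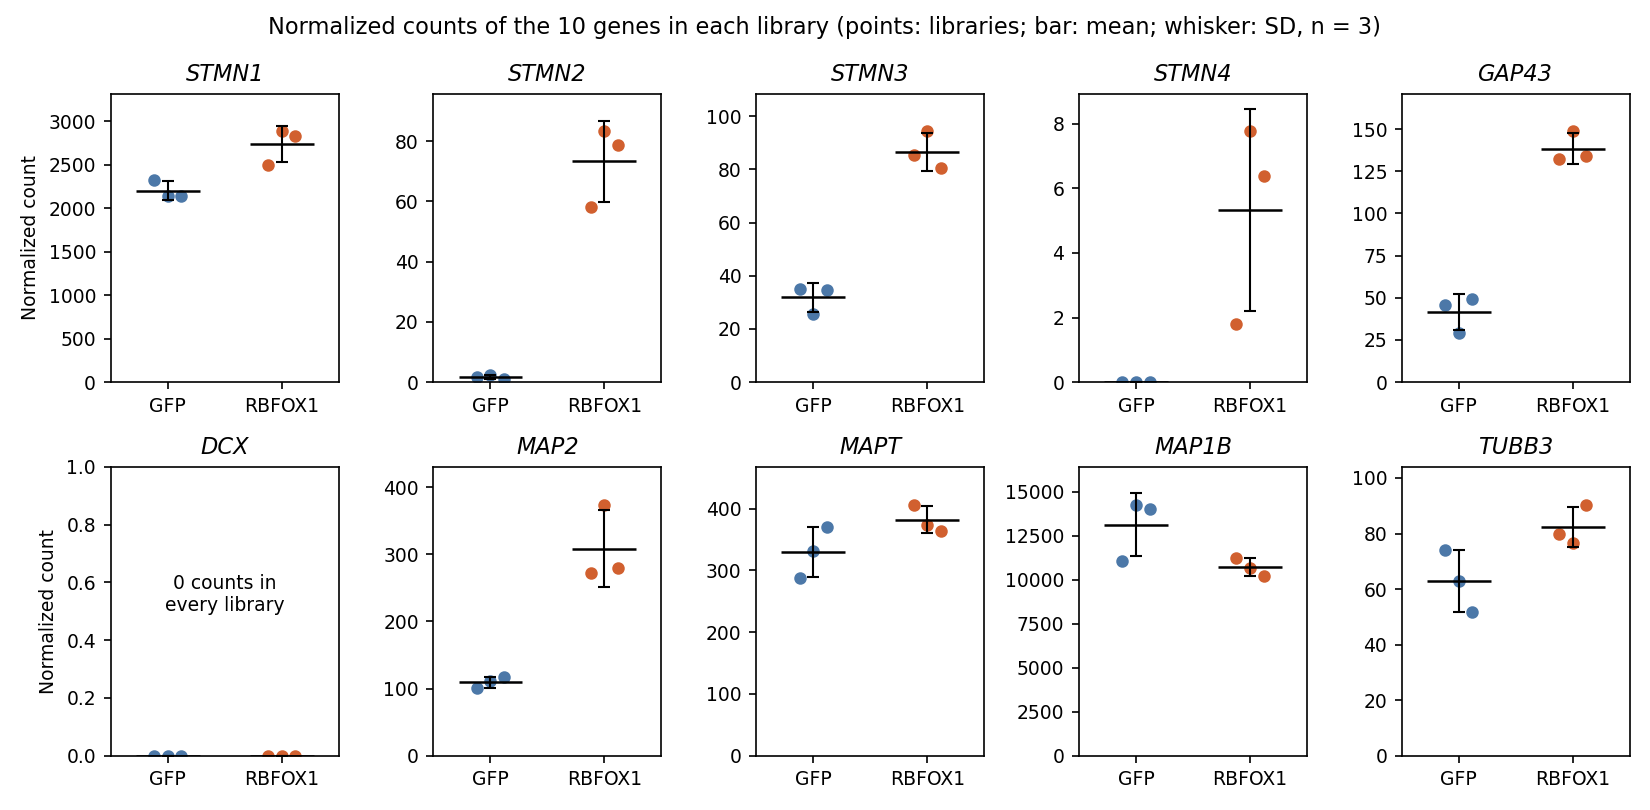
Normalized count of each of the 10 genes in each library (vertical axes, linear, each starting at 0, scaled per gene), with GFP and RBFOX1 replicates as points and the mean with its SD as a bar (n = 3). The 3 RBFOX1 points of GAP43, MAP2, STMN2 and STMN3 lie far above the 3 GFP points, those of MAPT and MAP1B overlap, and DCX stands at 0 throughout.

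STMN2 (ENSG00000104435, chromosome 8, GRCh38 79611117-79666158, plus strand) encodes a palmitoylated stathmin of growing axons, also called SCG10. It had 3, 2 and 1 counts in GFP replicates 1, 2 and 3, and 32, 75 and 86 counts in RBFOX1 replicates 1, 2 and 3. The GFP libraries thus sat at or below the limit of 3 counts, whereas each RBFOX1 library held at least 32 although replicate 1 was the shallowest of all. In normalized counts, the counts of a gene scaled by the TMM method to a common library size, GFP cells averaged 1.74 ± 0.645 and RBFOX1 cells 73.3 ± 13.4 (SD, n = 3). With 193 counts against 6, the ratio corrected for library size was 43.6, with an exact 95% interval of 19.7 to 120 that covers counting error only. The fitted log2 fold change was 5.34 (SE 0.324).

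STMN4 (ENSG00000015592, chromosome 8, 27235308-27258420, minus strand), a brain-enriched stathmin also known as RB3, had a far lower level. No count fell on it in the 3 GFP libraries, and 1, 7 and 7 fell on it in RBFOX1 replicates 1, 2 and 3. Setting 3 counts over the GFP group, the limit that a count of 0 allows, gave a ratio of 6.78 for RBFOX1 over GFP cells. It takes the 15 counts of the RBFOX1 group as exact, so with their counting error the lower limit would be smaller. STMN4 met the minimum of 10 counts through its RBFOX1 libraries alone, as STMN2 largely did. Had STMN4 stayed at its GFP level in both groups, it would not have been fitted.

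STMN3 (ENSG00000197457, chromosome 20, 63639705-63657682, minus strand), the SCG10-like stathmin, was present in both conditions. Its normalized counts were 35.2, 25.7 and 34.8 in GFP replicates 1, 2 and 3, and 85.3, 94.4 and 80.4 in RBFOX1 replicates 1, 2 and 3. The lowest RBFOX1 library was above the highest GFP library by more than the whole range of either group. The means were 31.9 ± 5.37 and 86.7 ± 7.11 (SD, n = 3), a log2 fold change of 1.41 (SE 0.169), or 2.65-fold.

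STMN1 (ENSG00000117632, chromosome 1, 25884181-25906991, minus strand), also called oncoprotein 18, is the stathmin of proliferating cells as well as of young neurons, and it was by far the most abundant of the family. It stood at 2324, 2139 and 2135 normalized counts in GFP replicates 1, 2 and 3, and at 2503, 2887 and 2835 in RBFOX1 replicates 1, 2 and 3. The groups did not overlap, but the closest libraries, GFP replicate 1 and RBFOX1 replicate 1, lay near each other. The log2 fold change was 0.32 (SE 0.058), or 1.25-fold.

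The balance within the family could be compared once each level was divided by transcript length. On a CPM scale divided by the kilobases of the canonical transcript (CPM per kilobase), STMN1 made up 98.9 to 99.2% of the summed level of the 4 stathmins in the GFP libraries and 95.7 to 96.2% in the RBFOX1 libraries. STMN2 went from 0.037-0.082% to 1.69-2.09%, and STMN3 from 0.764-1.03% to 1.75-2.10%. Thus STMN2 and STMN3 reached similar levels in RBFOX1 cells, 2.77 ± 0.507 and 2.78 ± 0.228 CPM per kilobase (SD, n = 3), while STMN1 remained the predominant stathmin in every library. With the union of all annotated exons as the length, the share of STMN1 in RBFOX1 libraries came to 86.2-87.5%, that of STMN2 to 6.21-7.60% and that of STMN3 to 5.09-6.15%, against 96.6-97.3%, 0.146-0.325% and 2.41-3.24% in GFP libraries.

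GAP43 (ENSG00000172020, chromosome 3, 115623510-115721490, plus strand) encodes neuromodulin, a membrane-bound phosphoprotein of axonal growth cones that, like STMN2, is used as a marker of axon growth. Its normalized counts were 45.5, 29.2 and 49.5 in GFP replicates 1, 2 and 3, and 132, 149 and 134 in RBFOX1 replicates 1, 2 and 3. All RBFOX1 libraries exceeded all GFP libraries by a wide margin, and GFP replicate 2 was the lowest of the 6. The means were 41.4 ± 10.8 and 138 ± 8.97 (SD, n = 3), and the log2 fold change was 1.71 (SE 0.156), or 3.27-fold. A noncoding gene on the same strand, ENSG00000241596, overlaps GAP43 and held at most 2 counts in any library.

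The polymer-binding proteins did not move together. MAP2 (ENSG00000078018, chromosome 2, 209424047-209734147, plus strand), which in neurons is concentrated in dendrites, had 101, 111 and 117 normalized counts in GFP replicates 1, 2 and 3, and 272, 374 and 279 in RBFOX1 replicates 1, 2 and 3. The groups were well apart, with RBFOX1 replicate 2 the highest library. The log2 fold change of MAP2 was 1.52 (SE 0.123), or 2.86-fold, from 109.5 ± 8.17 to 309 ± 56.9 (SD, n = 3).

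MAP1B (ENSG00000131711, chromosome 5, 72107234-72209565, plus strand), a large microtubule-associated protein of developing axons, was the most heavily counted of the 10 genes and the only one of them below its control level. It had 11078, 14270.4 and 14032 normalized counts in GFP replicates 1, 2 and 3, and 11246, 10697 and 10209 in RBFOX1 replicates 1, 2 and 3. GFP replicate 1 lay apart from the other two and below RBFOX1 replicate 1, so the groups overlapped. The log2 fold change was -0.29 (SE 0.072), and -0.40 without GFP replicate 1. That library was also the deepest, and over all genes its counts differed most from those of its group by a chi-square measure that grows with depth. A microRNA gene on the same strand, MIR4803, overlaps MAP1B and held at most 1 count in any library.

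MAPT (ENSG00000186868, chromosome 17, 45894527-46028334, plus strand) encodes tau, a protein of axonal microtubules. Its normalized counts were 288, 332 and 370 in the GFP replicates and 406, 374 and 364 in the RBFOX1 replicates, and the highest GFP library exceeded the lowest RBFOX1 library. The log2 fold change of 0.22 (SE 0.091) did not pass the threshold, and it came down to 0.11 without GFP replicate 1. Genes on the same strand that overlap MAPT are MAPT-IT1, STH and Metazoa_SRP. They held at most 4, 2 and 0 counts in any library.

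TUBB3 (ENSG00000258947, chromosome 16, 89921392-89938761, plus strand) encodes class III beta-tubulin, the isotype recognised by the TUJ1 antibody. It had 74.1, 63.1 and 51.6 normalized counts in GFP replicates 1, 2 and 3, and 79.8, 76.6 and 90.4 in RBFOX1 replicates 1, 2 and 3. The groups did not overlap, but only narrowly, and the log2 fold change of 0.36 (SE 0.156) did not pass the threshold. It passed when GFP replicate 1 was left out, at 0.54. How many TUBB3 reads were left out of these values is not known. In GENCODE release 44, the read-through gene ENSG00000198211 on the same strand shares 1584 of the 1706 nucleotides of the canonical TUBB3 transcript (92.8%), or 21.3% of all annotated TUBB3 exon bases, and the intersection-strict mode of counting sets aside a read pair that lies in both genes. The read-through gene had 0 counts in every library.

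DCX (ENSG00000077279, chromosome X, 111293779-111412429, minus strand), the doublecortin gene of migrating young neurons, had 0 counts in all 6 libraries. At this depth, 3 counts correspond to 1.82 to 5.44 normalized counts per library, so a level up to that limit would not have been detectable. Doublecortin RNA was thus not seen under RBFOX1 while STMN2, GAP43 and MAP2 were.

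**Figure D2:**
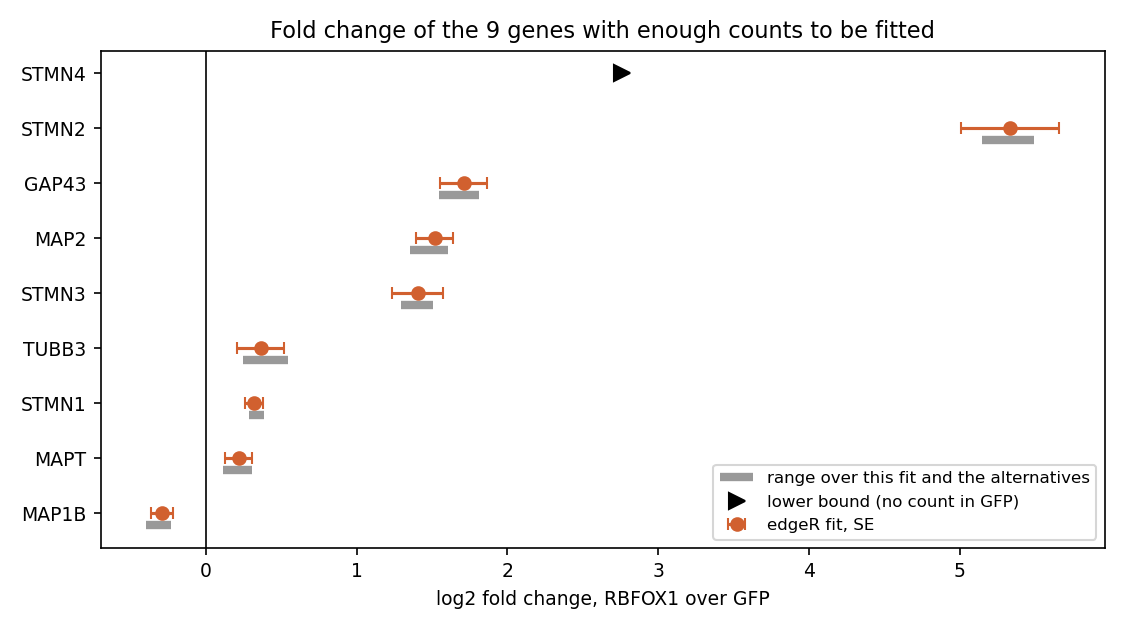
Fitted log2 fold change of RBFOX1 over GFP (horizontal axis) for the 9 genes with enough counts, with circles and bars for the edgeR estimate and its SE, grey bands for the range over that fit and its alternatives, and a triangle for the lower bound of STMN4. The estimates run from -0.29 for MAP1B to 5.34 for STMN2, and no band crosses 0.

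Per kilobase of canonical transcript, STMN1 was highest in GFP cells at 109.8 ± 5.39 CPM, followed by MAP1B at 80.2 ± 10.9 (SD, n = 3). MAPT, TUBB3 and GAP43 followed at 3.48 ± 0.434, 2.66 ± 0.474 and 1.99 ± 0.518, and neighbours among these did not differ by more than their summed SDs. STMN3 and MAP2, at 1.02 ± 0.172 and 0.818 ± 0.061, could not be separated either. STMN2 came next at 0.066 ± 0.024, and DCX and STMN4 were at 0.

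In RBFOX1 cells STMN1 at 137 ± 10.4 and MAP1B at 65.5 ± 3.17 were again at the top, and GAP43 was next at 6.66 ± 0.431 CPM per kilobase. MAPT at 4.03 ± 0.232 and TUBB3 at 3.47 ± 0.305 followed, and STMN3, STMN2 and MAP2 at 2.78, 2.77 and 2.30 were indistinguishable from their neighbours within this trio. STMN4 was last among those detected, at 0.165 ± 0.097. The order depended on the length used. With the union of all annotated exons MAP1B ranked above STMN1 in both groups, GAP43 ranked 3 in both, TUBB3 ranked 7 in GFP and 8 in RBFOX1 cells, and in RBFOX1 cells STMN2 ranked 4 and MAPT 7. For TUBB3 the length may overstate what could be counted, because of the shared stretch described above.

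MAP1B and STMN1 together took 92.1 to 96.7% of the summed normalized count of the 10 genes in every library. The other genes together rose from 545-624 normalized counts in the GFP libraries to 1034-1159 in the RBFOX1 libraries. The genes with the largest ratios were thus among the least abundant of the group.

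Since RBFOX1 is the protein supplied, TGCATG was searched on the transcript strand in the 3ʹ UTRs of the canonical transcripts. It was present in 4 of the 10 genes (40%), namely MAP2, STMN3, MAP1B and DCX, and in 5131 of 14049 tested protein-coding genes (36.5%). The density was 0.341 sites per kilobase in the 10 genes and 0.322 over the tested protein-coding genes. The 10 genes include DCX, which was not tested and holds 4 sites in 7908 nucleotides, or 0.506 per kilobase. Leaving DCX out would bring both the share and the density below those of the tested protein-coding genes. Sites of the 3 detected genes that hold the motif are given here because these genes moved in opposite directions. Capitals mark the motif, the letters are those of the transcript strand, and the sequence is that of GRCh38.
MAP2, chr2:209730646-209730667, plus strand, 256 nucleotides after the stop codon: ctctgtttTGCATGgagtatta
STMN3, chr20:63640636-63640657, minus strand, 688 nucleotides after the stop codon: gagcaggcTGCATGgtctagag
MAP1B, chr5:72206088-72206109, plus strand, 856 nucleotides after the stop codon: gattaaccTGCATGcagcaaca
MAP1B, chr5:72208503-72208524, plus strand, 3271 nucleotides after the stop codon: gagccctgTGCATGctttctca
MAP1B, chr5:72209247-72209268, plus strand, 4015 nucleotides after the stop codon: tcctacacTGCATGcagcccct

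MAP2 and STMN3, with 1 site each, were higher in RBFOX1 cells, and MAP1B, with 3 sites, was lower. STMN2, GAP43 and STMN4, which were higher as well, had no TGCATG in these 3ʹ UTRs, nor had STMN1, MAPT and TUBB3. The shorter GCATG occurred 1 time each in STMN4, STMN1 and MAPT, and 0 times in STMN2, GAP43 and TUBB3. Its share over all genes is not given. A match to these letters is a description of the sequence and no evidence of binding.

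The wider microtubule system was then examined with hand-written lists of genes, none of which includes the 10 genes above. No list was tested against other genes, and each count stands beside the 46.6% of all tested genes that passed. The share that passed was 58.8% of the tubulins, 57.9% of the other microtubule-binding proteins and 48.6% of the tubulin enzymes and chaperones, the last being near that of all genes. When only genes averaging at least 50 normalized counts were fitted, 7835 of 12005 passed, a higher share. The 46.6% is thus a low comparison for lists of well-counted genes, and nothing is read from these shares. Of 17 tested tubulins, 6 rose and 4 fell, with a median log2 fold change of -0.08. The adjusted p-values from here on come from the same quasi-likelihood test of edgeR, adjusted by Benjamini-Hochberg across every tested gene. TUBA1B, a ubiquitous alpha-tubulin, rose from 5996 ± 65.5 to 9324 ± 241 normalized counts (SD, n = 3; log2 fold change 0.64, adjusted p = 4.79e-10), and TUBB2A and TUBB2B, beta-tubulins abundant in neurons, rose by 0.56 and 0.54 (adjusted p = 4.67e-07 and 0.000814). TUBB4A, the beta-tubulin of mature neurons and oligodendrocytes, fell by 0.64 (adjusted p = 0.000931), as did TUBA4A by 0.51 and the gamma-tubulin gene TUBG2 by 0.33 (adjusted p = 6.72e-07 and 0.000805). Tubulin genes are near copies of each other, so reads may be lost or divided between them and the values for single isotypes are uncertain. The summed tubulin count was 57463 to 60915 in GFP and 58860 to 62458 in RBFOX1 libraries, ranges that overlap.

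Among 38 tested genes for other microtubule-binding proteins, 13 were higher and 9 lower, with a median of -0.0050. MTUS1, a microtubule-associated tumour suppressor, rose from 235 ± 27.3 to 1099.8 ± 52.0 normalized counts (log2 fold change 2.24, SE 0.079, adjusted p = 9.85e-15). EML6 and MAP6D1 rose by 1.30 and 1.06 on the log2 scale (adjusted p = 5.50e-07 and 3.63e-05). DCLK1, a kinase with doublecortin domains, fell by 0.94 (SE 0.103, adjusted p = 2.04e-07), CLIP4 by 0.87 and EML2 by 0.80 (adjusted p = 3.18e-11 and 1.78e-06). Chosen after their values were seen, the doublecortin-domain genes DCLK2 and DCDC2 rose, by 0.90 and 2.38 (adjusted p = 1.07e-08 and 8.14e-08). DCDC1 did not pass, at -0.06 (adjusted p = 0.912), and DCLK3 had too few counts to be tested. The relatives of DCX in this list thus did not share a direction. MAP1A, the close relative of MAP1B and likewise named after its values were seen, fell by 0.73 (adjusted p = 1.44e-09).

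Of 35 tested genes for tubulin-modifying enzymes and tubulin chaperones, 8 were higher and 9 lower, with a median of 0.02. These calls were 48.6%, near the 46.6% of all tested genes. VASH2, a vasohibin that removes the terminal tyrosine of alpha-tubulin, was the gene with the largest difference in this list, from 27.2 ± 0.849 to 296 ± 24.7 normalized counts (log2 fold change 3.44, SE 0.129, adjusted p = 2.27e-14). The other vasohibin, VASH1, and their common partner SVBP, both named after their values were seen, had log2 fold changes of 0.09 and -0.17 (adjusted p = 0.373 and 0.290). TTLL7, a ligase that adds glutamate chains to beta-tubulin, fell by 0.84 (adjusted p = 3.76e-08), FIGNL1 by 0.72 and ARL2, a partner of the tubulin chaperones, by 0.49 (adjusted p = 0.000141 and 8.12e-06). The chaperone TBCD and the polyglutamylase subunit TTLL1 rose by 0.60 and 0.50 (adjusted p = 1.57e-06 and 0.00324).

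The growth cone is the compartment in which GAP43 and STMN2 act. Of 23 tested genes of that list, 16 were higher and 4 lower, with a median log2 fold change of 0.34. GPRIN3, a G-protein-regulated inducer of neurite growth, rose from 7.55 ± 2.90 to 489.5 ± 43.5 normalized counts (log2 fold change 5.94, SE 0.163, adjusted p = 2.02e-16). The collapsin response mediator genes DPYSL5 and DPYSL3 rose by 1.53 and 1.52 (adjusted p = 7.65e-12 and 3.05e-15), with DPYSL3 reaching 30619 ± 1233 normalized counts. The actin-binding protein genes CAP1, FSCN1 and DBNL fell by 0.71, 0.44 and 0.34 (adjusted p = 4.34e-10, 1.96e-07 and 1.18e-05).

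**Figure D3:**
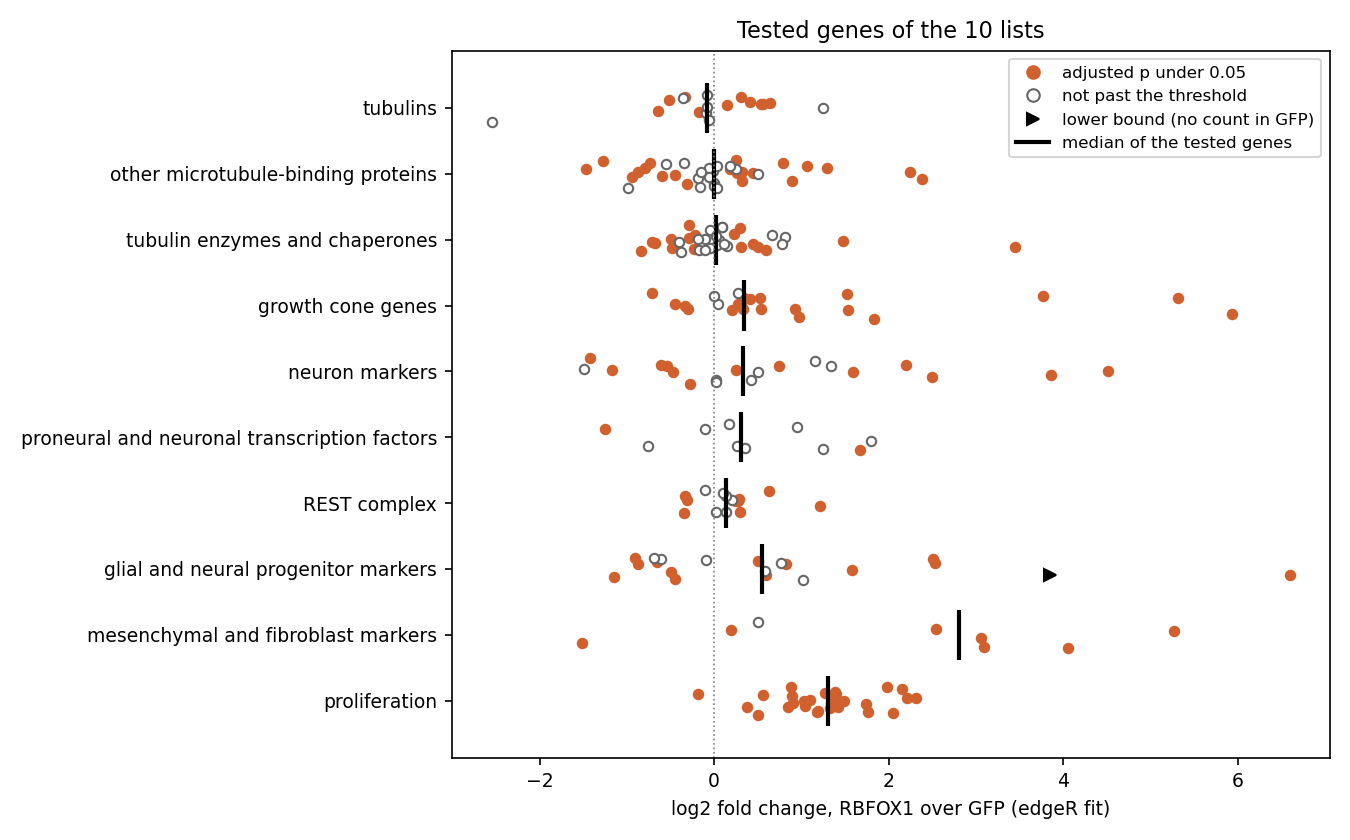
Log2 fold change of RBFOX1 over GFP (horizontal axis) of every tested gene in the 10 lists, with filled circles for genes past an adjusted p of 0.05, open circles for the others, a triangle for a lower bound where GFP cells had no count, and a vertical line for the list's median. Points of the microtubule lists lie on both sides of 0, and all but 1 of the proliferation genes lie to the right.

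A panel of 36 other neuron markers was examined beside the 10 genes. It was written with earlier results of these data known, so it is no independent check of their neuronal label. Of the 36 markers, 20 had enough counts to be tested, 7 were higher and 6 lower, with a median of 0.34. These calls were 65.0% of the tested markers, beside 46.6% of all tested genes. The neurofilament gene NEFL rose from 3949 ± 167 to 18162 ± 979 normalized counts (log2 fold change 2.20, SE 0.054, adjusted p = 3.53e-17). ELAVL2, a neuronal RNA-binding protein, rose by 2.49 and the secretogranin gene SCG2 by 3.86 (adjusted p = 4.57e-15 and 7.26e-11). UCHL1, a ubiquitin hydrolase abundant in neurons, fell by 1.17 (adjusted p = 4.53e-13), and the adhesion molecule NCAM1 and the endosomal protein gene NSG1 fell by 0.61 and 0.54 (adjusted p = 1.37e-06 and 8.37e-05). The neurofilament gene NEFH, the transporter gene SLC17A6 and the enzyme gene GAD2 had no count in any library. RBFOX3, which encodes the neuronal nuclear antigen NeuN, had 2, 1 and 0 counts in GFP and 1, 1 and 3 in RBFOX1 cells. In all, 15 of the 36 markers had at most 3 counts in every library, among them genes that define mature neurons. The other markers among the 7 higher and 6 lower are named here after their values were seen. NSG2, SYP, CHGB and THY1 rose by 4.51, 1.59, 0.75 and 0.25 (adjusted p = 8.09e-08, 5.35e-05, 0.00355 and 0.000189). SYN2, GAD1 and L1CAM had log2 fold changes of -1.43, -0.47 and -0.28 (adjusted p = 0.0246, 0.00109 and 0.00336).

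Transcription factors that drive neuronal identity were mostly silent. Of 36, 16 had no count in any library, 26 had at most 3 counts in every library and 10 were tested. Of these 10, 1 was higher and 1 lower (20.0%, beside 46.6% of all genes), with a median of 0.31. EBF1 rose from 53.7 ± 5.00 to 167 ± 13.4 normalized counts (log2 fold change 1.67, adjusted p = 1.43e-09), and POU3F2, named after its values were seen, fell by 1.25 (adjusted p = 0.00558). The call of POU3F2 was lost without RBFOX1 replicate 3 (log2 fold change -0.90, adjusted p = 0.0657) and with DESeq2 (adjusted p = 0.0504). REST, the repressor that silences neuronal genes such as STMN2 in other cells, was considered with its cofactors. Of 15 genes of that complex, 6 were higher and 3 lower (60%, beside 46.6% of all genes), with a median of 0.14. REST itself, also outside the naming rule, stood at 1996 ± 150 normalized counts under GFP and 2414 ± 69.8 under RBFOX1 (log2 fold change 0.28, adjusted p = 0.000397). Its corepressor RCOR1 rose by 1.21, the demethylase KDM1A by 0.63 and SIN3A by 0.29 (adjusted p = 2.91e-11, 1.72e-09 and 0.00544; SIN3A by 0.18 without GFP replicate 1), whereas CTDSP1 and HDAC1 fell by 0.34 and 0.33 (adjusted p = 4.47e-05 and 0.000244).

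Other programmes moved in the same libraries. Of 28 proliferation genes, 27 rose and 1 fell, or 100% beside 46.6% of all genes. The median log2 fold change of the 28 was 1.30, and their summed count went from 24128-24403 to 52489-56518. MYBL2, RRM2 and E2F2 rose by 2.31, 2.21 and 2.15 (adjusted p = 3.58e-15, 1.74e-14 and 1.94e-08), and PCNA, a sliding clamp of DNA replication, fell by 0.19 (adjusted p = 0.00611). STMN1 is a gene of dividing cells too, and the part of this change in its difference was not tested.

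Markers of other lineages moved as well. Of 20 tested glial and neural progenitor markers, 8 were higher and 6 lower (70.0%, beside 46.6% of all genes), with a median of 0.55. CHI3L1, SOX2 and NES rose by 6.60, 2.53 and 0.60 (adjusted p = 6.16e-18, 1.48e-10 and 6.10e-09), and SOX9, CD44 and VIM fell by 1.14, 0.90 and 0.65 (adjusted p = 1.53e-07, 6.78e-09 and 6.57e-10). The summed count of this list, in which VIM is the largest entry, was 82638 to 83916 in GFP and 56457 to 56915 in RBFOX1 libraries. HES5, AQP4, OLIG1, SOX10 and MOG had no count in any library, and GFAP, the defining marker of astrocytes, had 1 to 4 counts. Of 8 tested mesenchymal and fibroblast markers, 6 were higher and 1 lower (87.5%, beside 46.6% of all genes), with a median of 2.80. TAGLN, COL1A1 and COL3A1 rose by 5.27, 4.06 and 3.06 (adjusted p = 2.05e-20, 4.64e-15 and 7.87e-19), and ACTA2, the smooth-muscle actin, fell by 1.52 (adjusted p = 6.72e-11). Their summed count went from 7322-7930 to 48084-51337. The summed neuron markers went from 28726-29287 to 33156-35521. In that sum NEFL alone rose from a mean of 3949 to 18162, while UCHL1 fell from 16309 to 7233. The rise was thus not shared by the neuron markers as a group, of which 7 were higher and 6 lower. The part of the proliferative, glial and mesenchymal changes in the differences of the 10 genes was not tested.

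**Figure D4:**
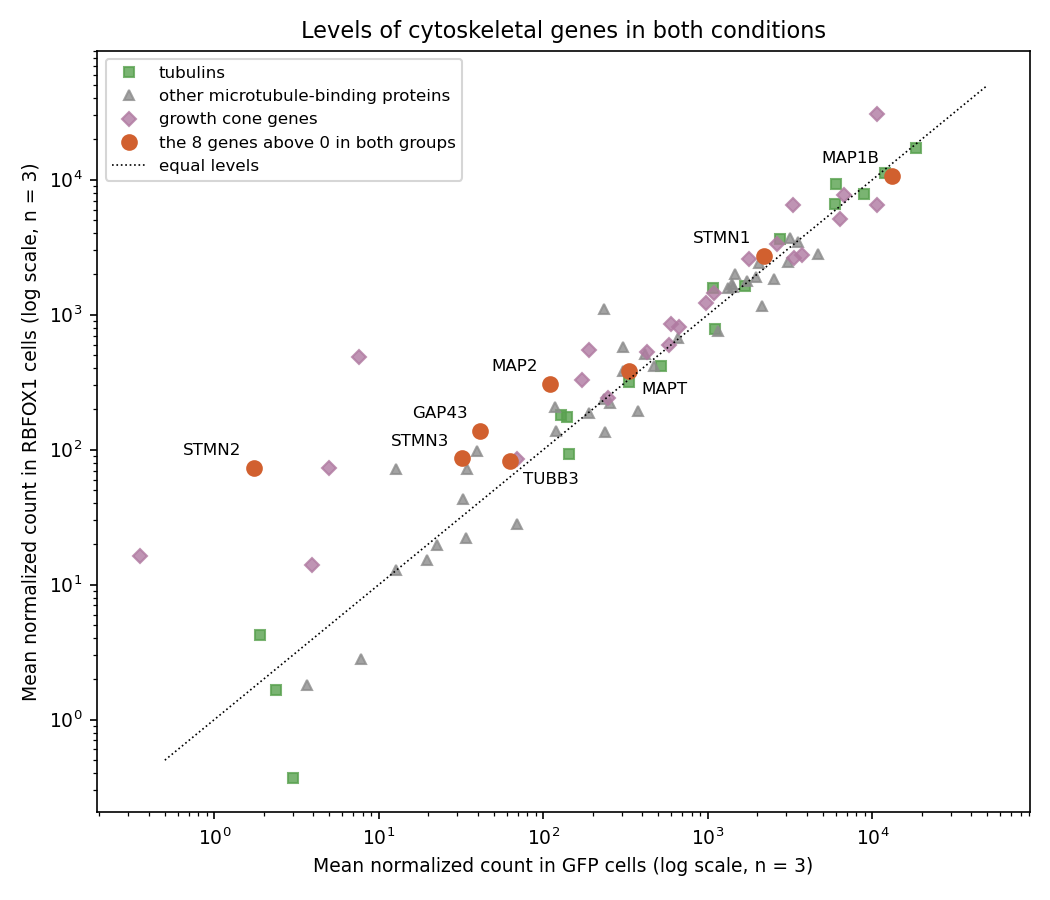
Mean normalized count in GFP cells (horizontal axis) and in RBFOX1 cells (vertical axis) on log scales (n = 3 each) for the cytoskeletal genes, with a dotted line where both are equal. STMN2, GAP43, MAP2 and STMN3 lie above the line at low to middle levels, whereas STMN1 and MAP1B lie close to it at the high end.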

How the data were processed

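RNA of A172 cells carrying a GFP or an RBFOX1 lentiviral construct was measured, with 3 libraries each. Reads were aligned by the authors with HISAT2 (GRCh38), HTSeq-count then assigned them to Ensembl 87 genes (intersection-strict, strand-aware), and the deposited values are raw counts per gene, without normalization. Versions of these tools are not given in the sources used here. A deposited table of the authors' own DESeq2 comparison (fold changes, p-values and means) was not used. Of the read pairs, 52.0 to 61.9% were counted on genes, 6.61 to 8.74% on none, 6.89 to 9.35% were ambiguous, 16.8 to 27.0% mapped with low quality and 4.64 to 7.46% did not align. Only pairs on genes entered library sizes and tests.

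Genes with at least 10 counts over the 6 libraries were normalized with TMM and compared in R 4.3.3 by the two-sided quasi-likelihood test of edgeR 4.0.16 on condition alone, with Benjamini-Hochberg adjustment and a threshold of 0.05. The SE of a log2 fold change was taken as its size divided by the square root of the F statistic of that test. The common biological coefficient of variation was 0.0542. Replicates are biological per the study's methods, and counts of every replicate pair differed beyond sampling noise (chi-square per degree of freedom 1.60 to 8.23), the highest values being those of pairs with GFP replicate 1. Normalized counts are counts scaled to the mean effective library size. Symbols, coordinates and lengths came from GENCODE release 44 on GRCh38, in which 98.1% of the identifiers were found. The exact interval covers counting error only, and limits of 3 counts cover that of the group at 0 only.

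The 10 genes and all lists were chosen with earlier results of these data known. Besides the 10 genes and RBFOX1, the text names from each list up to 3 genes with the largest rise and up to 3 with the largest fall among genes that passed the threshold, averaged at least 50 normalized counts and did not overlap between groups. It also names same-strand genes overlapping the 10 and the 3 genes nearest in profile to GAP43 and to MAP1B, the largest rise and the largest fall at that count. A gene that the rule would name is not reported here. Genes at 0, markers at the detection limit and genes said to be named after their values were seen fall outside this rule. Scripts were tested on simulated data. DESeq2 (1.42.0), limma-voom (3.58.1), RLE and upper-quartile scaling, other count filters, a replicate block and the omission of each replicate were run as alternatives. A fold-change minimum and exon-union lengths were added after seeing the data.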

Additional observations from a re-analysis of the deposited data

How the results depend on the processing

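Of the 9 fitted genes, 7 passed under both scalings, DESeq2, limma-voom and no filter, and 6 to 8 passed when each replicate was left out in turn, without a change of direction for any of them. At 6 calls, without RBFOX1 replicate 2 or 3, STMN4 fell under 10 counts. At 8 calls, TUBB3 passed without GFP replicate 1 and MAPT without GFP replicate 3. With genes required to average 50 normalized counts, STMN2 and STMN4 could not be fitted and MAPT and TUBB3 passed. Of all tested genes, 9580 passed in the reported fit, 7669 with DESeq2, 7835 with that mean count and 8326 to 9307 with a replicate left out. A required log2 fold change of at least 1 left 2611 of all genes, 0 tubulins, 6 other microtubule-binding proteins, 2 tubulin enzymes and chaperones, 6 growth cone genes, 7 neuron markers, 1 gene of the REST complex and 6 glial and neural progenitor markers, by its own construction. DESeq2 called 1 neuronal transcription factor, where the lost call was that of POU3F2, and the cause was not tested. The mean count of at least 50 left 9 glial and neural progenitor markers, since fewer genes were tested. No pairing of the libraries by replicate number was seen. Deviations of same-numbered libraries correlated by -0.17 to 0.0344, and those of other pairs by -0.153 to 0.176. Of 6 libraries, 1 correlated best with its own number. So few correlations cannot exclude a pairing. A replicate block gave 9046 calls over all genes and 7 among the 10 genes. Depth limits STMN4 and DCX, at or under 7 counts per library.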

Other observations

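The genes nearest in profile to GAP43 and MAP1B were found by the Euclidean distance between log2 normalized counts, centred on the GFP mean, over the 6 libraries and among 12011 genes with a mean of at least 50 normalized counts. For GAP43 these were HIC1, MYO5B and CDCA7, at distances of 0.265, 0.268 and 0.288, with log2 fold changes of 1.78, 1.73 and 1.62 beside 1.71 for GAP43. HIC1 encodes a transcriptional repressor, MYO5B an unconventional myosin of vesicle transport and CDCA7 a nuclear protein tied to the cell cycle. In all 4 genes GFP replicate 2 was the lowest library.

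For MAP1B the nearest genes were EXOC6B, NR3C2 and BMPR2, at distances of 0.0588, 0.0717 and 0.0768, with log2 fold changes of -0.30, -0.25 and -0.27 beside -0.29 for MAP1B. EXOC6B encodes a subunit of the exocyst, NR3C2 the mineralocorticoid receptor and BMPR2 a receptor for bone morphogenetic proteins. In each of them, as in MAP1B, GFP replicate 1 was well below the other GFP libraries and within or close to the range of the RBFOX1 libraries.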
